A study of Homo sapiens with 9 samples.

Results

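MYC, MAX and the MXD proteins form a network of transcription factors that bind DNA in pairs. The 10 genes described here were taken by symbol from the table of raw counts: MYC, MYCN, MYCL, MAX, MXD1, MXI1, MXD3, MXD4, MNT and MLX, 10 of the 60683 genes listed. RNA was sequenced from Hep3B cells, a human hepatocellular carcinoma line, in 3 groups of 3 libraries, each exposed for 24 hours to vehicle (DMSO) at 20% O2, to vehicle at 1% O2, or to 32-134D at 1% O2. 32-134D is a small molecule developed as an inhibitor of the hypoxia-inducible factors HIF-1 and HIF-2, and the study's methods give its concentration as 5 μM. No library held cells given 32-134D at 20% O2. Hep3B was the only cell line of these libraries. The labels describe the libraries of a group as biological replicates without saying whether they came from separate passages, so p-values measure the spread between these libraries.

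Proteins of this family carry a basic helix-loop-helix leucine zipper. MAX is the shared partner: MYC, MYCN and MYCL pair with it to activate transcription at E-boxes, DNA elements of sequence CACGTG and its variants, and MXD1, MXI1 (also called MXD2), MXD3, MXD4 and MNT pair with it on the same elements to recruit SIN3 and histone deacetylase complexes that repress transcription. MLX is the partner of MNT, MXD1 and MXD4 and of the glucose-responsive factors MLXIP and MLXIPL. In liver cancer MYC is a frequent oncogene, and in hypoxic cells MXI1 is a known target of HIF-1 that opposes MYC.

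MXI1 had the largest fold change of the 9 members with enough counts for one, in hypoxia and with 32-134D, and its promoters are shown for that reason. RefSeq (GRCh38.p14) gave 12 promoters for 9 of the 10 members, each covering 250 bases before to 50 bases after a start of transcription. The core of the hypoxia response element was searched as ACGTG and GCGTG, and the E-box as CACGTG, on both strands. Because CACGTG reads the same on both strands, each copy also counts as 2 copies of ACGTG. MXI1 had 3 annotated starts, of which the most upstream, chr10:110207355-110207654, held neither motif. The other two follow on the plus strand, 5′ to 3′, with each match to ACGTG or GCGTG (or its complement CACGT or CACGC) in capitals.
MXI1 start 2, chr10:110209981-110210280: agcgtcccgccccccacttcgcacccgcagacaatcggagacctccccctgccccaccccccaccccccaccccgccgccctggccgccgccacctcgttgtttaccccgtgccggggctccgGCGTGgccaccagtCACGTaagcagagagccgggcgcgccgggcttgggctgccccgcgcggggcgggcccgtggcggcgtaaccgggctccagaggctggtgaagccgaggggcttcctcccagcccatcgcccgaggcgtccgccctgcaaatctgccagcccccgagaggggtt
MXI1 start 3, chr10:110225746-110226045: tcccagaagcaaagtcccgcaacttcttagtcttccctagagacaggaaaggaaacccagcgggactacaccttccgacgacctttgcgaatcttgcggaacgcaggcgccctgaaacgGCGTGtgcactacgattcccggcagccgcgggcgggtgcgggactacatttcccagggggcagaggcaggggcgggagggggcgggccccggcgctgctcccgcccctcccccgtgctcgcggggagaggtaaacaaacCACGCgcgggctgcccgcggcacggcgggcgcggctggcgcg
Start 2 held 1 ACGTG and 1 GCGTG, and start 3 held 2 GCGTG. Counts per gene do not show which of the 3 starts was used.

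CACGTG, the sequence that dimers of this family bind, was found in the promoters of 3 members, MXD4, MNT and MLX. Each is given as 30 bases on the gene's own strand with the motif in capitals.
MXD4, minus strand, chr4:2262330-2262359: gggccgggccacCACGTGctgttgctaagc
MNT, minus strand, chr17:2401236-2401265: ccctgcccgggcCACGTGtgcgcgcgccgg
MLX, plus strand, chr17:42567038-42567067: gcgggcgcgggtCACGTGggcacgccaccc
Over the family, 8 of 12 promoters held ACGTG or GCGTG, against 48.4% of the 35116 promoters in the RefSeq table, and 3 of 12 held CACGTG, against 7.26%. A match of these letters is a description of the window and was not tested as a binding site. A promoter of MYC was not analysed here.

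Total counts were between 6013980 and 40549699 per library, and the shallowest library was replicate 2 of vehicle at 20% O2. Replicate 3 of 32-134D stood apart from the other libraries of its group, with 40.5 and 36.2 as the chi-square divided by its degrees of freedom against replicates 1 and 2, where those 2 libraries gave 2.08 against each other, so results with 32-134D are given also without it where that changed a call, or moved a fold change by over 1.5 times. All 9 hepatocyte and hepatoma markers were above 1 CPM (counts scaled by the library's total and a normalization factor) in every library, and summed to 18309 to 19763 CPM in vehicle at 20% O2, 13416 to 16747 CPM in vehicle at 1% O2 and 11741 to 18088 CPM with 32-134D. The 5 fibroblast markers summed to 36.1 to 39.7 CPM in vehicle at 20% O2, 17.1 to 18.5 CPM in vehicle at 1% O2 and 35.5 to 43.4 CPM with 32-134D, and DCN was at 0 in 6 of 9 libraries. The 4 leukocyte markers summed to at most 3.80 CPM and the 3 endothelial markers to at most 1.28 CPM in any library, with CD3E and VWF at 0 in all 9. The treatment was checked with 5 HIF targets (CA9, EPO, VEGFA, ANGPTL4 and NDRG1). In hypoxia 5 of 5 were higher, with a median log2 fold change of 3.82, against 19.5% of all genes. With 32-134D 5 of 5 were lower than in vehicle at 1% O2, with a median of -3.35, against 13.7% of all genes. Compared with vehicle at 20% O2, 4 of 5 stayed higher with 32-134D, with a median of 0.69, against 3.004% of all genes. The exception was EPO, at 0.47 and not called.

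Levels are given as CPM scaled by the trimmed mean of M values (TMM), and fold changes were tested by quasi-likelihood in edgeR, in a single fit to all 9 libraries. A gene was called higher or lower with a Benjamini-Hochberg false discovery rate (FDR) below 0.05 over the 22672 genes tested and a fold change above 1.5. All 10 members passed the filter of 10 counts summed over the libraries. The comparison of 32-134D with vehicle at 1% O2 and the hypoxia comparison share the 3 libraries of vehicle at 1% O2, so a low or high value in these appears in both.

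In hypoxia 5 of the 10 members rose (MYC, MYCL, MAX, MXD1 and MXI1) and 2 fell (MXD3 and MXD4). Over all genes tested, 19.5% were called higher and 20.3% lower, 39.7% in all. The libraries of the 2 groups did not overlap for 9 of the 10 members, against 60.5% of all genes tested. The 9 include MYCN, which had only 3 to 5 counts per library at 20% O2 and 0 to 3 in vehicle at 1% O2. With 32-134D, 1 member was higher than in vehicle at 1% O2 (MXD3), against 16.2% of all genes, and 2 were lower (MXD1 and MXI1; 3 without replicate 3, with MYC), against 13.7% and 29.9% called in all. For 5 of the 10 members the libraries did not overlap, against 56.1% of all genes. Against vehicle at 20% O2, 4 members stayed higher with 32-134D (MYC, MYCL, MXD1 and MXI1), where 3.004% of all genes were called higher and 3.52% in either direction. The libraries of 7 members did not overlap there, against 29.8% of all genes. edgeR called 0 members lower in that comparison, where 0.516% of all genes were, while 2 members were lower at an unadjusted p below 0.05 and DESeq2 called 1, MXD3. Of calls over all genes, 49.0% were higher in hypoxia and 54.2% with 32-134D, and scaling to total library size changed this to 34.5% and 72.0% and moved the median log2 fold change of all genes to -0.21 and 0.17.

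**Figure D1:**
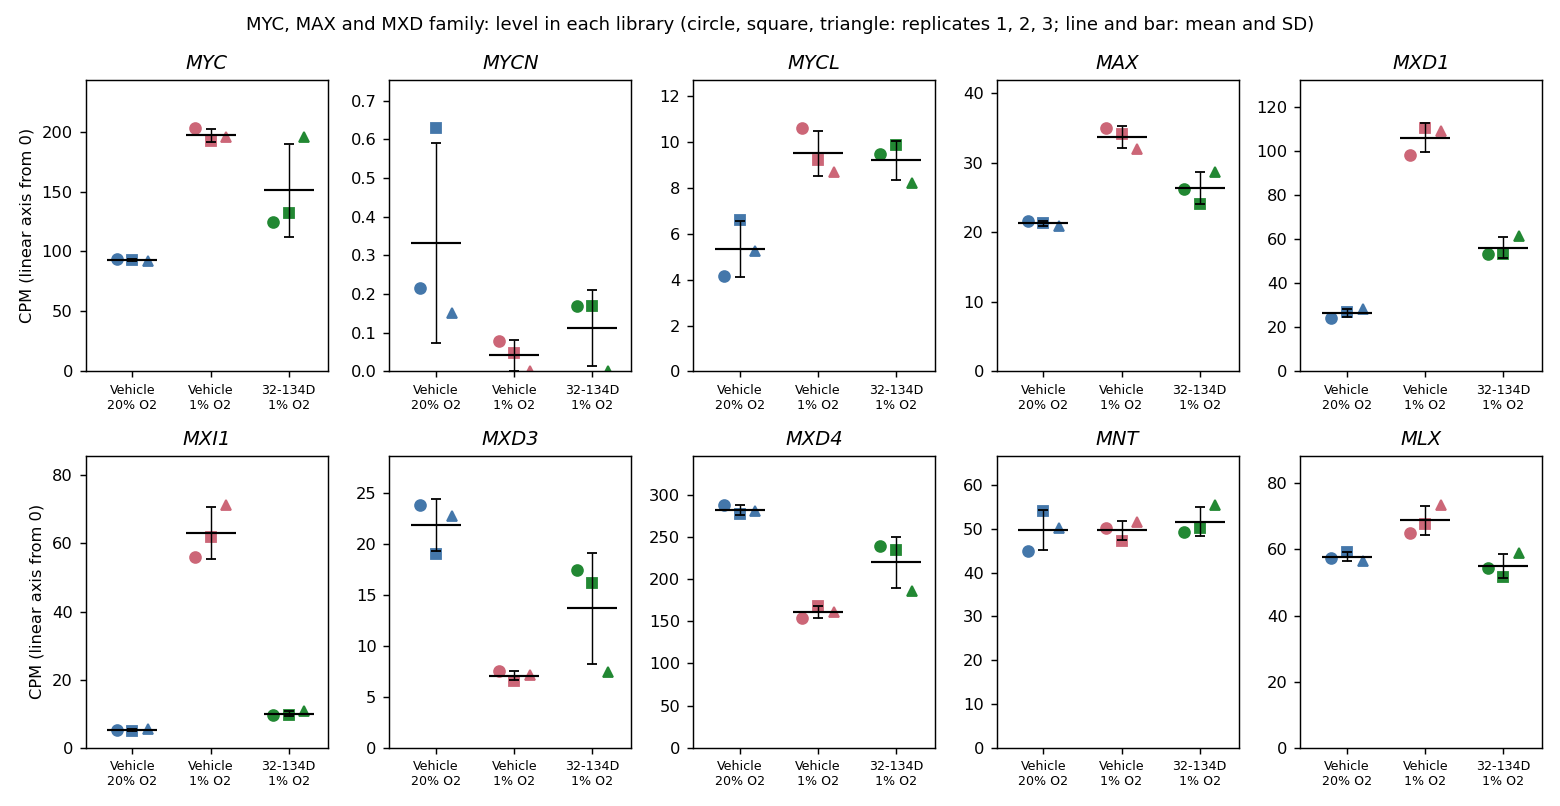
CPM of each of the 10 members in each library, on linear axes from 0 that differ between panels. Circles, squares and triangles are replicates 1, 2 and 3, and the line and bar are the mean and SD of 3 libraries. MXI1 and MXD1 were highest in vehicle at 1% O2, MXD3 and MXD4 were lowest there, and the triangle of 32-134D lies apart from the other 2 libraries for MYC, MXD3 and MXD4.

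MYC (chr8:127735434-127741434, plus strand, GENCODE 29 on GRCh38) encodes the activator that gives the network its name. Its level was 93.4, 92.8 and 92.3 CPM in the 3 libraries of vehicle at 20% O2, 203, 192 and 195 CPM in vehicle at 1% O2, and 125, 132 and 196 CPM with 32-134D. Every hypoxic vehicle library was above every library at 20% O2, while with 32-134D 2 libraries lay between the vehicle groups and replicate 3 lay within vehicle at 1% O2. The means were 92.8 ± 0.516, 196.8 ± 5.30 and 151 ± 39.1 CPM (SD, n = 3). In hypoxia the log2 fold change was 1.08 (SE 0.13, edgeR FDR 4.63e-06), a 2.12-fold rise. With 32-134D it was -0.38 against vehicle at 1% O2 (95% interval -0.65 to -0.11, FDR 0.0208), short of the fold threshold. Without replicate 3 the value was -0.61 (FDR 1.3e-08) and MYC was called lower. MYC was higher than in vehicle at 20% O2 by 0.70 on the log2 scale (FDR 0.00302), and without replicate 3 by 0.47 (FDR 1.84e-05), below the fold threshold. Without replicate 1 of 32-134D the values were -0.21 against vehicle at 1% O2 and 0.82 against vehicle at 20% O2. The mean of MYC with 32-134D thus lay between the vehicle groups with or without replicate 3. Which of these differences passed the fold threshold rested on that library.

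MYCL (chr1:39895426-39902256, minus strand), the family member first described in small cell lung cancer, was present at a low level. It had 4.16, 6.60 and 5.26 CPM in vehicle at 20% O2, 10.6, 9.24 and 8.68 CPM in vehicle at 1% O2, and 9.47, 9.90 and 8.23 CPM with 32-134D. Both groups at 1% O2 lay above the group at 20% O2 and overlapped each other. These CPM rest on 42 to 173 counts per library at 20% O2 and 180 to 400 counts at 1% O2. The log2 fold change was 0.88 in hypoxia (SE 0.16, FDR 0.000289) and 0.83 with 32-134D against vehicle at 20% O2 (FDR 0.00438). Between 32-134D and vehicle at 1% O2 the difference was -0.05, with a 95% interval of -0.36 to 0.26 and an FDR of 0.820, and its sign turned under most other scalings, so no direction is given.

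MYCN (chr2:15940564-15947007, plus strand), the member amplified in neuroblastoma, was at or near the floor of 3 counts. Its counts were 3, 4 and 5 in vehicle at 20% O2, 3, 1 and 0 in vehicle at 1% O2, and 6, 5 and 0 with 32-134D. At this depth no difference was detectable (FDR 0.0621, 0.297 and 0.530 in the 3 comparisons) and no fold is given.

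MAX (chr14:65006174-65102695, minus strand), the obligate partner, had 21.6, 21.4 and 20.9 CPM in vehicle at 20% O2, 34.9, 34.2 and 31.9 CPM in vehicle at 1% O2, and 26.2, 24.1 and 28.7 CPM with 32-134D. The 3 groups did not overlap, and the 32-134D libraries lay between the vehicle groups. MAX rose in hypoxia by a log2 fold change of 0.67 (SE 0.09, FDR 1.95e-05), just past the fold threshold. The call was lost with total library size, at 0.45 where the median of all genes was -0.21, with a filter of 10 counts in every library (0.56) and with all libraries thinned to the smallest (0.41). With 32-134D the value was -0.36 against vehicle at 1% O2 (FDR 0.00357) and 0.31 against vehicle at 20% O2 (FDR 0.0466), both short of 1.5-fold.

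MXI1 (chr10:110207605-110287365, plus strand), the antagonist whose promoters are printed above, had the lowest level per kilobase of exon among the MXD genes in vehicle at 20% O2. It was at 5.31, 5.02 and 5.44 CPM there, at 56.1, 61.8 and 71.4 CPM in vehicle at 1% O2, and at 9.67, 9.59 and 10.7 CPM with 32-134D. The 3 groups were fully separate, and the 32-134D libraries lay far closer to the group at 20% O2. In counts these were 32 to 179, 1311 to 2116 and 235 to 341 per library. The rise in hypoxia was 3.57 on the log2 scale (SE 0.12, FDR 1.4e-11), or 11.8-fold. With 32-134D the level fell by 2.66 (SE 0.10, FDR 3.01e-10), 6.32-fold lower than in vehicle at 1% O2, and it stayed higher than in vehicle at 20% O2 by 0.91 (SE 0.12, FDR 0.000254). Over the alternatives that left out 1 library, the fall ranged from -2.74 to -2.49 and was -2.71 without replicate 3 of 32-134D.

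MXD1 (chr2:69897688-69942945, plus strand), an antagonist induced when many cell types differentiate, was at 24.5, 27.01 and 28.2 CPM in vehicle at 20% O2. In vehicle at 1% O2 it was at 98.5, 110.4 and 109.4 CPM, and with 32-134D at 53.3, 53.4 and 61.6 CPM. Again the 3 groups did not overlap and 32-134D took a middle place. MXD1 rose by 1.99 in hypoxia (SE 0.09, FDR 2.84e-10), or 3.98-fold, and was lower by a log2 fold change of -0.92 with 32-134D (SE 0.08, FDR 6.3e-07). It remained 1.07 above vehicle at 20% O2 on the log2 scale (FDR 3.07e-06). The exons of MXD1 overlap those of SNRNP27 on the same strand over 237 bases, 3.73% of its exon length, and SNRNP27 was not called in any of the comparisons. On the log2 scale SNRNP27 differed by 0.37 in hypoxia (FDR 0.0205) and -0.37 with 32-134D (FDR 0.0182), short of 1.5-fold. These have the same signs as for MXD1, and how many reads were shared was not tested.

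MXD3 and MXD4 went the other way. MXD3 (chr5:177301461-177312757, minus strand), an antagonist expressed in dividing cells, was at 23.9, 19 and 22.8 CPM in vehicle at 20% O2, 7.501, 6.60 and 7.16 CPM in vehicle at 1% O2, and 17.4, 16.2 and 7.41 CPM with 32-134D. The vehicle groups were separate, and with 32-134D replicate 3 fell within the range of vehicle at 1% O2 while the other two lay near the group at 20% O2. MXD3 fell by 1.64 on the log2 scale in hypoxia (SE 0.23, FDR 2.6e-05). With 32-134D it was higher than in vehicle at 1% O2 by 0.96 (SE 0.23, FDR 0.00279), and by 1.24 without replicate 3. The value against vehicle at 20% O2 was -0.68 (FDR 0.0707) and the gene was called lower under some other settings: -0.67 with DESeq2 (FDR 0.0226), -0.66 with no filter on low counts, and -0.88 without replicate 1 of 32-134D, while it was -0.41 without replicate 3.

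Reads of MXD3 may be shared with neighbours, since 17.97% of its exon bases overlap RAB24 on the same strand and 22.5% overlap PRELID1 on the opposite strand, and the strand setting of the counting is not given in the sources used here. Neither neighbour was called. On the log2 scale PRELID1 differed by 0.04 in hypoxia and -0.18 with 32-134D, and RAB24 by 0.39 and -0.42, opposite in sign to MXD3 in both comparisons.

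MXD4 (chr4:2247432-2262294, minus strand), an antagonist found in resting and differentiated cells, was at 288, 277 and 281 CPM in vehicle at 20% O2, 154, 168 and 161 CPM in vehicle at 1% O2, and 239.6, 235 and 185 CPM with 32-134D. Here too the 3 groups were separate, and replicate 3 was the 32-134D library nearest to vehicle at 1% O2. MXD4 fell by 0.81 in hypoxia (SE 0.09, FDR 2.09e-06). With 32-134D the value was 0.45 against vehicle at 1% O2 (SE 0.09, FDR 0.000668) and -0.36 against vehicle at 20% O2 (FDR 0.0190), neither past the fold threshold. Scaled to total library size, the former was 0.64 and MXD4 was called higher. The summed fibroblast markers were also lower in vehicle at 1% O2 than in the other groups. PDGFRB made up most of this sum, with means of 27.2, 10.1 and 21.99 CPM in vehicle at 20% O2, vehicle at 1% O2 and 32-134D, while LUM was at 2.43, 3.76 and 8.39 CPM. The leukocyte sum was at 1.88 to 3.80, 0.896 to 1.87 and 1.83 to 3.15 CPM in the 3 groups, the endothelial sum at 0.639 to 1.004, 0.0943 to 0.380 and 0.505 to 1.28 CPM, and the hepatocyte marker APOB at means of 4486, 405 and 3519 CPM. The part of these markers in the values of MXD3 and MXD4 was not tested.

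MNT (chr17:2384060-2401118, minus strand) encodes the antagonist that is present in proliferating and resting cells alike. Its level was 45.0, 54.0 and 50.2 CPM in vehicle at 20% O2, 50.2, 47.3 and 51.5 CPM in vehicle at 1% O2, and 49.3, 50.1 and 55.5 CPM with 32-134D. All 3 groups overlapped. The log2 difference was 0.01 in hypoxia (95% interval -0.18 to 0.19, FDR 0.967), 0.05 with 32-134D against vehicle at 1% O2 (-0.12 to 0.23) and 0.06 against vehicle at 20% O2 (-0.12 to 0.24). Each interval lay within 1.5-fold of no change. The sign in hypoxia turned under other scalings, and with total library size the value was -0.21, against -0.21 for the median of all genes.

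MLX (chr17:42567068-42573239, plus strand) was at 57.4, 59.4 and 56.6 CPM in vehicle at 20% O2, 65.0, 67.8 and 73.5 CPM in vehicle at 1% O2, and 54.4, 51.6 and 58.9 CPM with 32-134D. The hypoxic vehicle libraries were above both other groups, which overlapped each other. The differences were 0.25 in hypoxia (SE 0.08, FDR 0.0135), -0.32 with 32-134D against vehicle at 1% O2 (SE 0.08, FDR 0.00280) and -0.07 against vehicle at 20% O2 (FDR 0.649), none past the fold threshold. PSMC3IP overlaps 18.1% of the exon bases of MLX on the opposite strand and moved more, by 1.04 in hypoxia (FDR 7.04e-08) and -0.77 with 32-134D (FDR 1.83e-06). How many of its reads were counted for MLX was not tested.

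**Figure D2:**
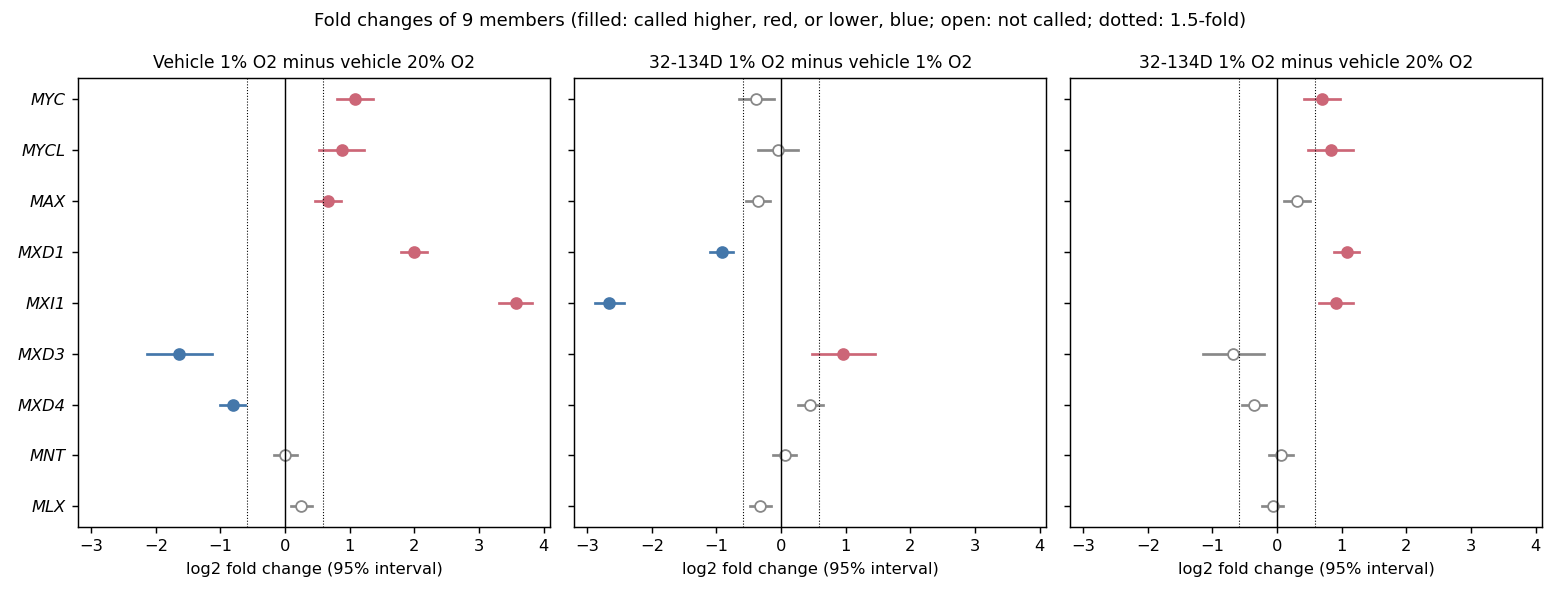
Log2 fold changes (edgeR) of 9 members with their 95% intervals in the 3 comparisons, MYCN being left out for its low counts. Filled points passed both thresholds, open points did not, and dotted lines mark a 1.5-fold change. MXI1 had the largest value in hypoxia (3.57) and with 32-134D (-2.66), and MNT lay near 0 in all 3 panels.

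Levels of different genes were compared per kilobase of annotated exon, taken as the union over all transcripts. This union exceeds the longest transcript by unlike amounts, with 5154 against 2279 bases for MXD3 and 4607 against 3470 for MXI1. The order and overlaps of genes given here, and the shares given below, therefore depend on the length chosen. In vehicle at 20% O2 the most abundant member was MXD4, at 39.99 ± 0.811 CPM per kilobase (SD, n = 3), followed by MYC at 30.9 ± 0.172 and MLX at 13.6 ± 0.335. MNT, MAX, MXD3 and MXD1 lay between 4.18 and 5.70, with MXD3 and MXD1 overlapping, and MXI1 and MYCL overlapped near 1.14 and 1.05. In vehicle at 1% O2 the order at the top was exchanged: MYC was first at 65.6 ± 1.77 and MXD4 second at 22.8 ± 0.992. MXD1 (16.7 ± 1.04), MLX (16.1 ± 1.02) and MXI1 (13.7 ± 1.68) followed, each overlapping the next. With 32-134D, MYC was still first at 50.3 ± 13.02 and MXD4 second at 31.2 ± 4.26, and MXI1 (2.17 ± 0.140) had gone back to the lower end, where it overlapped MXD3 (2.66 ± 1.06).

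Because the MYC-type proteins and the MXD-type proteins compete for MAX, the RNA of the 8 MAX partners was also expressed as shares within each library, which do not depend on the scaling between libraries. Over the shares and ratios, 33 exact tests were made, and the smallest Benjamini-Hochberg adjusted p among them was 0.15. MYC, MYCN and MYCL together made up 36.5%, 37.3% and 36.4% of the counts per kilobase of these partners in vehicle at 20% O2, 55.1%, 51.8% and 51.5% in vehicle at 1% O2, and 44.9%, 46.7% and 59.2% with 32-134D. The vehicle groups did not overlap and differed by 16.1 percentage points (SE 1.19, exact two-sided permutation p = 0.1, the smallest that 3 against 3 libraries can give). With 32-134D the share did not separate from vehicle at 1% O2 (difference -2.59, exact permutation p = 0.6), and the difference was -7.06 without replicate 3 and 0.108 without replicate 1. Against vehicle at 20% O2 it was higher by 13.5 percentage points (exact permutation p = 0.1), or 9.01 without replicate 3.

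Among the antagonists the makeup was rearranged. MXD4 gave 45.8% ± 0.755 of partner RNA in vehicle at 20% O2, 17.9% ± 0.752 in vehicle at 1% O2 and 30.6% ± 6.44 with 32-134D (SD, n = 3). MXI1 gave 1.31% ± 0.0482, 10.7% ± 1.17 and 2.11% ± 0.0504, and MXD1 4.79% ± 0.354, 13.1% ± 0.720 and 8.59% ± 0.0714. MXD3 gave 4.86%, 1.08% and 2.65%, and MNT 6.52%, 4.45% and 5.76%. For each of these 5 antagonists no library of vehicle at 1% O2 overlapped either other group (exact permutation p = 0.1 in each case). Shares within a library are tied together, so a share can move because others did, and these separations are not independent. The level of MNT differed by only 0.01 on the log2 scale in hypoxia, and its CPM overlapped between groups in every comparison. RNA is not protein, and the shares say nothing of how much of each protein was bound to MAX.

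The ratio of MXI1 to MYC was taken within each library. There were 17.5, 18.2 and 16.9 counts of MYC for each count of MXI1 in vehicle at 20% O2, 3.61, 3.11 and 2.74 in vehicle at 1% O2, and 12.9, 13.8 and 18.2 with 32-134D. Vehicle at 1% O2 was apart from both other groups, which overlapped each other. The log2 ratio of MXI1 to MYC was -4.13 ± 0.05, -1.65 ± 0.20 and -3.89 ± 0.26 (SD, n = 3). It rose by 2.48 in hypoxia (exact permutation p = 0.1) and the difference with 32-134D was -2.24 against vehicle at 1% O2 (exact permutation p = 0.1) and 0.25 against vehicle at 20% O2 (exact permutation p = 0.3). Without replicate 3 these last differences were -2.09 and 0.40. The RNA of all partners per MAX RNA, per kilobase, was 18.2 ± 0.332, 16.8 ± 1.03 and 17.3 ± 0.896, with overlapping libraries in every comparison (exact permutation p = 0.2, 0.6 and 0.3).

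**Figure D3:**
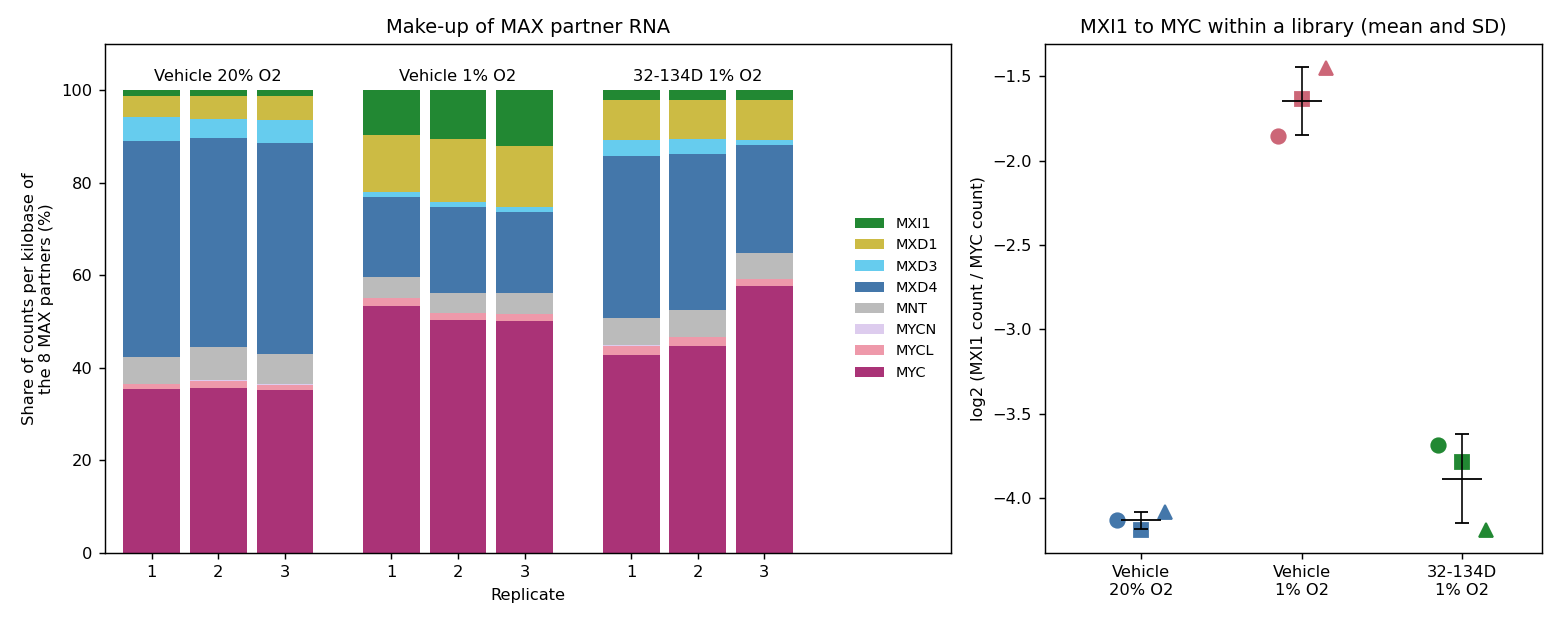
Left, the share of counts per kilobase (percent) that each of the 8 MAX partners gave in each of the 9 libraries. Right, log2 of the MXI1 count over the MYC count per library, with the mean and SD of 3 libraries. MYC-type genes at the foot of the bars took 36.4% to 37.3% in vehicle at 20% O2 and 51.5% to 55.1% in vehicle at 1% O2, MXI1 at the top reached 10.7% on average only in vehicle at 1% O2, and replicate 3 of 32-134D had the highest MYC-type share, 59.2%.

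The partners and corepressors of the network did not move in a single direction. Of 15 genes, 4 rose and 5 fell in hypoxia, with a median log2 fold change of -0.03 against 0.001 for all genes tested. In the background 19.5% of all genes were higher and 20.3% lower. SAP30, a subunit of the SIN3 corepressor that MXD proteins recruit, rose by 2.52 (FDR 3.59e-10) and was lower by -1.77 with 32-134D (FDR 1.22e-08). PCGF6 and HDAC2, of the polycomb complex with MGA and MAX and of the histone deacetylases, rose by 0.93 and 0.74. The MLX partners MLXIPL and MLXIP fell, at -1.69 (FDR 5.7e-09) and -0.93 (FDR 9.48e-07). With 32-134D 4 of the 15 were higher (3 without replicate 3) and 1 lower, against 16.2% and 13.7% of all genes, with a median of -0.08, and MLXIPL (1.14) and MLXIP (0.82) were among the higher ones. SAP30, higher by 0.75, was the 1 gene of the 15 called against vehicle at 20% O2, where 3.52% of all genes were called.

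Of 24 genes for cofactors of MYC and enzymes that control its stability, 4 rose and 7 fell in hypoxia (median -0.02), against 19.5% and 20.3% of all genes. PIM1, a kinase that cooperates with MYC, rose by 3.19 (FDR 2.63e-11), from 15.02 ± 1.182 to 139 ± 16.9 CPM (SD, n = 3). USP28, a deubiquitinase that stabilises MYC, and CCNT1, the cyclin of the elongation factor P-TEFb, rose by 1.01 and 0.89. HUWE1, a ubiquitin ligase for MYC, EP400, of the TIP60 acetyltransferase complex, and MYCBP2 were at -1.57, -1.30 and -1.26. With 32-134D 5 were higher (6 without replicate 3) and 2 lower (median 0.05), against 16.2% and 13.7% of all genes: HUWE1 (1.47), EP400 (1.32) and MYCBP2 (1.26) among the higher, and PIM1 (-1.45) and USP28 (-0.89) as the lower. PIM1 was the 1 gene of the 24 called against vehicle at 20% O2, higher by 1.75, where 3.52% of all genes were called.

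Of 51 genes that MYC is known to activate, 11 rose and 6 fell in hypoxia, with a median log2 fold change of 0.19. The share that rose was close to the 19.5% of all genes, and 20.3% of all genes fell. Scaled to total library size, 6 of the 51 rose and 12 fell, where 3081 of all 22672 genes rose and 5848 fell. The rises were led by ODC1, the first enzyme of polyamine synthesis (2.57, FDR 1.71e-11), and the amino acid transporters SLC7A5 (1.54, FDR 0.00039) and SLC1A5 (1.49, FDR 8.75e-08). The falls were led by RRS1, for ribosome assembly (-1.24), EIF4G1, the scaffold of the translation initiation complex (-0.997), and CAD, of pyrimidine synthesis (-0.95). With 32-134D 4 were higher and 3 lower, against 16.2% and 13.7% of all genes, with a median of -0.04: RRS1 (1.26), CAD (0.94) and EIF4G1 (0.80) among the higher, and ODC1 (-1.004), the cell cycle phosphatase CDC25A (-0.74) and SLC1A5 (-0.67) as the lower. Without replicate 3 of 32-134D, 3 were higher and 5 lower. SLC7A5 was one of those added, at -0.80 (FDR 7.25e-10) against -0.12 (FDR 0.761) with all libraries, and its level with 32-134D was 404 ± 263 CPM (SD, n = 3). Compared with vehicle at 20% O2, 4 of the 51 were higher, against 3.004% of all genes: ODC1 (1.56), SLC7A5 (1.42, and 0.74 without replicate 3), SLC1A5 (0.81) and SHMT2, a mitochondrial enzyme of serine metabolism named after its value was seen (0.72, and 0.47 without replicate 3, not called).

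Of 16 genes that MYC is known to repress, 9 rose and 5 fell in hypoxia, against 19.5% and 20.3% of all genes, with a median of 0.84. GADD45G, a growth arrest gene, rose by 4.89 (FDR 3.31e-09), a fold that rests on 3, 1 and 20 counts in vehicle at 20% O2 against 407, 303 and 414 in vehicle at 1% O2. NDRG1 rose by 3.69 (FDR 1.01e-10) and the phosphatase gene DUSP1 by 3.58 (FDR 4.54e-12). NDRG1 also stands in the list of HIF targets. The falls were led by NDRG2 (-1.79), cyclin D1 (CCND1, -1.71) and the hepatocyte factor CEBPA (-1.61). With 32-134D 7 were lower and 4 higher, against 13.7% and 16.2% of all genes (median -0.41), the lower led by NDRG1 (-3.001), DUSP1 (-2.16) and GADD45G (-2.09) and the higher by CCND1 (1.36), NDRG2 (1.12) and THBS1 (1.00). Compared with vehicle at 20% O2, 6 were higher and 1 lower, against 3.004% and 0.516% of all genes. The lower one was NDRG2 at -0.67 (FDR 0.0295), which was at -0.43 and not called without replicate 3.

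Of 14 genes controlled by MLX with MLXIP or MLXIPL, 13 were tested, and 4 rose and 7 fell in hypoxia, against 19.5% and 20.3% of all genes, with a median of -0.62. ARRDC4 and TXNIP, arrestin-like proteins that limit glucose uptake, rose by 4.89 (FDR 4.02e-11) and 4.34 (FDR 5.69e-12). G6PC, for glucose output, was called higher (FDR 0.000288), but it had 1, 0 and 2 counts in vehicle at 20% O2, 20, 13 and 16 in vehicle at 1% O2 and 3, 3 and 2 with 32-134D, so no fold is given. The lipogenic genes FASN and ACACA fell, FASN at -2.598 (FDR 7.93e-11) and ACACA at -2.41 (FDR 1.36e-10), as did the glycerol phosphate gene GPD1 at -2.61. Among other lipogenic genes of the list, named after their values were seen, ACLY was at -0.52 and SCD at 0.12, and neither was called. ELOVL6, also lipogenic and named after its value was seen, was among the 7 that fell in hypoxia. It was called higher with 32-134D than in vehicle at 1% O2 (1.28). Against vehicle at 20% O2 ELOVL6 was at -0.30 and not called. With 32-134D 6 were higher and 4 lower, against 16.2% and 13.7% of all genes (median 0.45), with ACACA at 2.20, GPD1 at 2.17 and FASN at 2.15 on one side and TXNIP at -2.48 and ARRDC4 at -2.37 on the other, where G6PC was called lower too (FDR 0.000364). Against vehicle at 20% O2, 3 were higher, where 3.004% of all genes were, ARRDC4 (2.51), TXNIP (1.86) and the liver hormone gene FGF21 (1.81), and 1 was lower, KHK, for fructose breakdown, at -0.80, which was at -0.54 and not called without replicate 3. FGF21 and KHK are named here after their values were seen, and FGF21 had 4, 1 and 9 counts in vehicle at 20% O2.

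**Figure D4:**
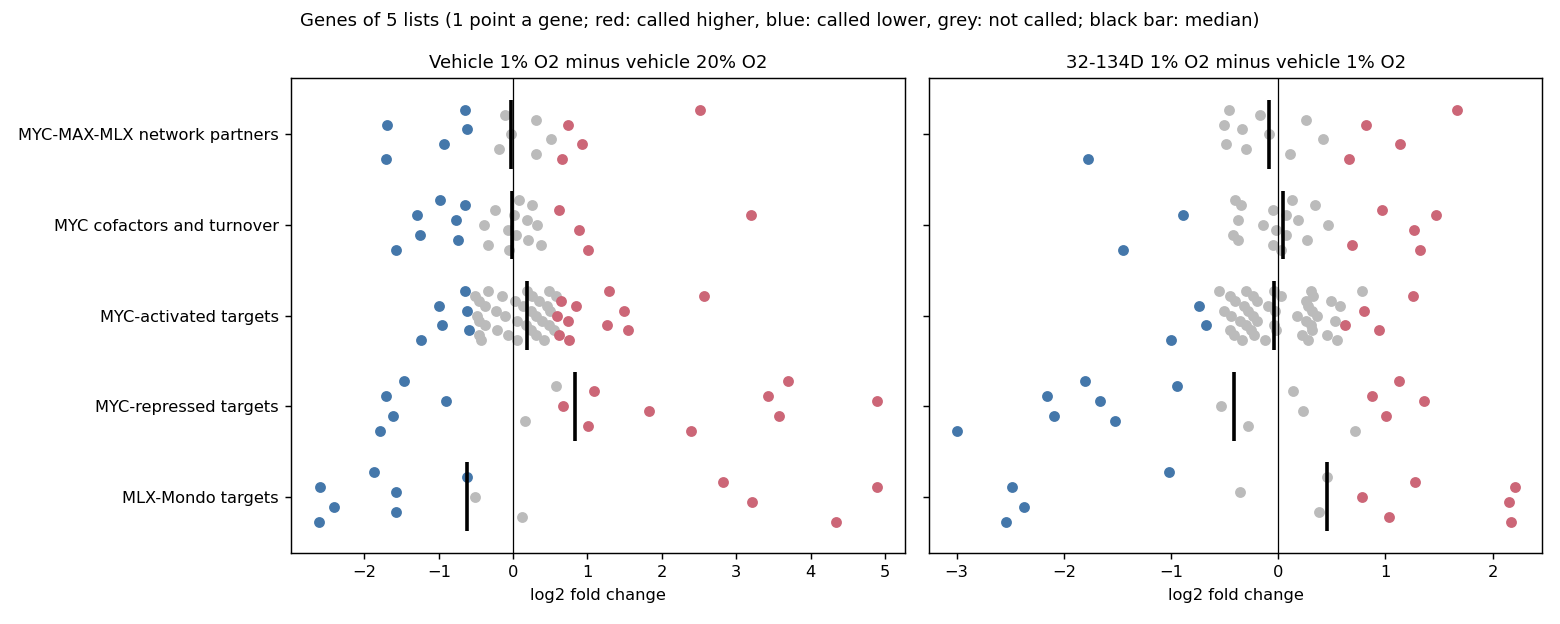
Log2 fold changes (edgeR) of the genes of 5 lists, 1 point a gene, in hypoxia (left) and with 32-134D against vehicle at 1% O2 (right). Red and blue points were called higher and lower, grey points were not called, and the black bar is the list's median. The medians lie between -0.62 and 0.84 on the left and between -0.41 and 0.45 on the right, with called genes on both sides of 0 in every list.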

How the data were processed

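The authors deposited raw counts of reads per Ensembl gene. Their reads were checked with FastQC and MultiQC, mapped with STAR to GRCh38 with Ensembl release 100 and counted with featureCounts, per the labels and the study's methods, which name DESeq2 for their own tests. Versions of these tools and the strand setting of the counting are not given in the sources used here. Its 9 columns were matched to samples by name, with 0 columns left over and 0 rows without a gene.

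A summed count of 10 was the minimum, which left 22672 genes, 22265 of them in GENCODE 29. They were fitted in R 4.3.3 by the quasi-likelihood test of edgeR 4.0.16 after TMM scaling, with 1 factor of 3 groups. The common biological coefficient of variation was 10.5%. Calls needed an FDR below 0.05 and a fold change above 1.5. Standard errors were derived from the F statistic. Shares used the union of annotated exons as length, and ratios a pseudocount of 0.5. On simulated data with 200 changed genes, the fit recovered 95% of them among 22139 genes in the hypoxia comparison and 95.5% among 22132 in the 32-134D comparison, and 5% and 6.37% of calls were false. The changed genes were drawn from well-counted genes only, with folds all well above 1.5. Far fewer genes were changed than the 39.7% called in hypoxia. Recovery of smaller folds, of genes with low counts or with many genes changed was not measured.

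The members, the gene lists and the tests were chosen with earlier results of these data known. From each list the text names the 3 genes called with the largest rise and the 3 with the largest fall, in hypoxia and with 32-134D; other genes are marked, and 1 gene the rule would name is not reported here. For MXI1 and MYC the 5 genes with the nearest profile are named. Alternatives were other scalings, other filters on low counts and thresholds, DESeq2 1.42.0, thinning to the smallest library, a replicate block, fits of only the 2 groups compared and leaving out each library. Total counts were 6013980 to 40549699 per library, so 3 counts, taken as the floor, correspond to 0.0740 to 0.499 CPM. Floors cover counting error only. Whether a change occurred in all cells or in some cannot be told apart in bulk libraries.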

Additional observations from a re-analysis of the deposited data

How the results depend on the processing

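Of the log2 fold changes of 9 members, 430 values under the alternatives kept their direction and their side of the thresholds, 6 gained a call, 4 lost one and 19 turned sign, and of the counts of members 83 stayed within 1.5 times and 13 did not. The rises of MYC, MYCL, MXD1 and MXI1 and the falls of MXD3 and MXD4 in hypoxia kept their calls under every setting run but the 2-fold threshold, where MYCL and MXD4 lost theirs. Above 2-fold, 3 members were higher and 1 lower in hypoxia (10.8% and 14.5% of all genes), 0 were higher and 1 lower with 32-134D (10.8% and 5.24%), and 1 was higher against vehicle at 20% O2 (1.25%). With no fold threshold, 2 were higher and 5 lower with 32-134D (21.9% and 25.5% of all genes), and 1 was lower against vehicle at 20% O2 (2.44%). With total library size 2 members were higher with 32-134D, as were 4755 of all 22672 genes. Compared with vehicle at 20% O2, 1 member was lower with no filter on low counts and with DESeq2. Over all genes, 291 of 33284 and 145 of 22672 were lower there under these settings.

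The sign of MYCL with 32-134D turned to 0.0117 with RLE size factors, 0.138 with total library size, 0.0482 with 10 counts in every library, 0.0117 with DESeq2, 0.372 with thinning and 0.0181 with only the 2 groups compared. For MNT in hypoxia the same settings but the last gave -0.0427, -0.208, -0.104, -0.0403 and -0.0800. Neither gene was called under them, and the cause was not tested.

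Among the lists, total library size gave 2 network partners higher in hypoxia, 6 MYC-activated genes higher and 12 lower in hypoxia, 8 higher and 1 lower with 32-134D, and 2 MYC-repressed genes lower against vehicle at 20% O2. Of all 22672 genes, this scaling called 3081 higher and 5848 lower in hypoxia, and 4755 higher and 1847 lower with 32-134D. It called 152 lower against vehicle at 20% O2. MYC-activated genes higher with 32-134D numbered 7 with RLE, 8 with 10 counts in every library, 7 with DESeq2 and 7 with only the 2 groups compared. Over all genes, 3966 of 22672, 2677 of 12912, 3582 of 22672 and 3799 of 21585 were higher under these settings. With 10 counts in every library, where fewer genes are tested, 2 MLX targets were higher in hypoxia and 2 lower with 32-134D. Of all 12912 genes tested there, 2824 were higher in hypoxia and 1771 lower with 32-134D. With only the 2 groups compared, 0 MYC-repressed genes and 0 MLX targets were lower against vehicle at 20% O2, where 39 of 21195 genes were. The cause of the other shifts was not tested.

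With 1 library left out, members lower with 32-134D numbered 2 to 3, members higher against vehicle at 20% O2 3 to 4 (3 without replicate 3 of 32-134D, which loses MYC), and members lower there 0 to 1 (1 without replicate 1 of 32-134D). Against vehicle at 20% O2 the ranges were 0 to 1 for network partners lower, 1 to 2 for cofactors higher, 0 to 1 for cofactors lower, 0 to 3 for MYC-repressed genes lower and 0 to 2 for MLX targets lower. With 32-134D, MYC-activated genes higher ranged from 3 to 8 (8 without replicate 3 of vehicle at 1% O2, 7 without replicate 1 of 32-134D) and lower from 2 to 5 (5 without replicate 3 of 32-134D). The MYCL value ranged from -0.0994 to 0.0428, MNT from -0.115 to 0.0598 in hypoxia and from -0.00252 to 0.116 against vehicle at 20% O2, and the MYC-type share from -7.06 to 0.108 percentage points.

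No effect shared by libraries with the same replicate number was seen. Over 9 such pairs the correlation of deviations was -0.144 to 0.0620, and 1 of 9 libraries correlated best with its own number. Whether libraries with the same number were handled together cannot be told from these values. With a replicate block, 1 member, MXD3 (-0.73), was lower against vehicle at 20% O2, 2 MYC-repressed genes were lower there, and over all genes 4296 were called higher and 4375 lower in hypoxia, against 4412 and 4595. The block changed no other call of a member. The shallowest library had 32 counts of MXI1 and 42 of MYCL, and the counts of MYCN did not allow a fold at any setting.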

Other observations

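Genes next to the MYC-type members, or antisense to them, were measured as well. PVT1, the long noncoding RNA beside MYC, had 912 counts over the 9 libraries, with 3.52 ± 0.273 CPM in vehicle at 20% O2, 3.51 ± 0.315 in vehicle at 1% O2 and 5.01 ± 1.69 with 32-134D (SD, n = 3). The last group was at 3.66, 4.48 and 6.90 CPM, with replicate 3 highest as it was for MYC. Its log2 fold change was 0.01 in hypoxia (95% interval -0.47 to 0.50, FDR 0.972), where MYC rose by 1.08, and 0.49 with 32-134D (FDR 0.0668), or 0.20 without replicate 3 (FDR 0.327). CASC11, on the other side of MYC, had 24 counts in all. DDX1, beside MYCN, and TRIT1, beside MYCL, differed by 0.51 (FDR 3.71e-05) and 0.48 (FDR 0.00385) in hypoxia, short of 1.5-fold. MYCNOS, MYCNUT and MYCLP1 had 0 counts in every library and MYCL-AS1 had 3 in all. edgeR and DESeq2 called 0 of these 4 tested neighbours in any comparison, and at an unadjusted p below 0.05, 3 were higher in hypoxia, 1 was higher and 2 were lower with 32-134D, and 2 were higher against vehicle at 20% O2. Over all genes, edgeR called 39.7% in hypoxia, 29.9% with 32-134D and 3.52% against vehicle at 20% O2.

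Among 13910 genes of at least 1 CPM on average, the profiles over the 9 libraries nearest to MXI1, by the root mean square difference of centred log2 CPM, were those of LDHA (0.163), BNIP3L (0.181), RIT1 (0.187), BNIP3 (0.194) and CITED2 (0.208). LDHA makes lactate, BNIP3 and BNIP3L act in mitophagy, and CITED2 is a transcriptional regulator that competes with HIF for p300. Their log2 fold changes were 3.10 to 3.90 in hypoxia and -2.92 to -2.30 with 32-134D. Those nearest to MYC were YARS1 (0.0559), LRRC49 (0.0676), C21orf91 (0.0747), PYCR1 (0.0798) and IRS2 (0.0854), with 0.99 to 1.05 in hypoxia and -0.46 to -0.34 with 32-134D. All 9 libraries share the same groups and depths, and these distances are a description with no test.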
